A study of Homo sapiens with 12 samples.

Results

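The 37 genes described here encode the machinery of homologous recombination and of the Fanconi anemia pathway. They were listed by symbol, and the list was matched to the gene identifiers of the 12 count files, in which all 37 were found among 60649 genes. All 37 also passed the expression filter that left 16683 genes for testing. The libraries came from spheroids of SBC3, an established human small cell lung cancer line. They were prepared with KAPA mRNA HyperPrep reagents. The treatment label gives 4 groups of 3 libraries: control, teriflunomide, lurbinectedin, and teriflunomide with lurbinectedin (the combination). All groups share the same line, and the labels name no genetic change, dose or exposure time. Nothing in the labels says whether the 3 libraries of a group came from separate cultures, so every p-value below measures the spread between these libraries, which may be technical.

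Homologous recombination repairs DNA double-strand breaks from an undamaged copy: the MRE11-RAD50-NBN complex, CtIP and EXO1 trim the ends, BRCA1, PALB2 and BRCA2 prepare the trimmed strand for pairing with the copy, and helicases and nucleases resolve the joined strands. The Fanconi anemia pathway handles DNA interstrand crosslinks: a core complex with the ubiquitin-conjugating enzyme UBE2T marks FANCD2 and FANCI, which call in nucleases and recombination. Teriflunomide, the active metabolite of leflunomide, inhibits dihydroorotate dehydrogenase in pyrimidine synthesis. Lurbinectedin binds the minor groove of DNA, forms adducts and interferes with RNA polymerase II.

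Total counts ran from 23206414 to 33222162 per library. The share of counts on mitochondrial genome genes was 6.256 to 7.169% in control and 13.764 to 17.050% with lurbinectedin. It was 8.424, 8.431 and 22.636% with teriflunomide and 14.571, 24.924 and 13.071% in the combination. Teriflunomide replicate 3 stood apart: its Pearson correlation with the other teriflunomide libraries was 0.977 and 0.979, against 0.995 between those 2, and for 34 of the 37 genes it was the library farthest from the other 2 of its group. Values without it are given in the account of teriflunomide. Of the defining small cell lung cancer markers, INSM1 had no count in any library and NCAM1, POU2F3 and CHGA were under 1 CPM (the read count normalised to library size, here with TMM factors), whereas control means were 16.8 CPM for SYP, 4.03 for NEUROD1 and 246 for YAP1. Immune and endothelial markers (PTPRC, CD3E, CD68, PECAM1, VWF) were under 1 CPM, but the fibroblast collagens COL1A1 and COL1A2 averaged 266 and 270 CPM in control. The 7 immune, fibroblast and endothelial markers summed to 519 to 549 CPM in control, 466 to 485 with teriflunomide, 186 to 220 with lurbinectedin and 198 to 227 in the combination, and their part in the results was not tested. In bulk RNA, fewer cells that express a gene and less RNA of it per cell cannot be told apart.

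The stretches upstream of 4 of the genes are shown because these genes mark the pattern that follows: FANCC had the largest fall, FANCD2 encodes the protein the pathway marks, RAD51C was the gene called with teriflunomide, and XRCC3 had the largest rise. They come from the RefSeq promoter table (GRCh38.p14), which held 32 of the 37 genes, and are given 5′ to 3′ on the gene's strand, up to the listed start or to the nearest exon of a protein-coding gene. Capitals mark matches, on either strand, to any of 4 motifs: E2F (TTTCCCGC, TTTCGCGC, TTTGCCGC or TTTGGCGC), the cell cycle homology region (CHR; TTTGAA or TTCGAA), the CCAAT box (CCAAT) and the GC box (GGGCGG).
FANCC (chr9:95317710-95317959, minus strand): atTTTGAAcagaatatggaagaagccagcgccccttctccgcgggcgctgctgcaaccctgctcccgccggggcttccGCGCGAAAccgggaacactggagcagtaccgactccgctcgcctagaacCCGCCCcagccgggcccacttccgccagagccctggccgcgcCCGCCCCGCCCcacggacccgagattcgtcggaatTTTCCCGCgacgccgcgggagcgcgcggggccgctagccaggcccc
FANCD2 (chr3:10026187-10026369, plus strand): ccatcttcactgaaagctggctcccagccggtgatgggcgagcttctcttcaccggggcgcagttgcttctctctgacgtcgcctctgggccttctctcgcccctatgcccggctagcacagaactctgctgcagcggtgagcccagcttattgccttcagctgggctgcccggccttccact
RAD51C (chr17:58692323-58692572, plus strand): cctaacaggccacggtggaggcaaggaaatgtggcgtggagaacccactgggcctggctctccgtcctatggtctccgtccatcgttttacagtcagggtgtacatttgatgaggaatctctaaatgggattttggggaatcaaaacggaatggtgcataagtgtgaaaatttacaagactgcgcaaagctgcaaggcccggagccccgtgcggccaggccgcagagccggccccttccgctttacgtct
XRCC3 (chr14:103715505-103715701, minus strand): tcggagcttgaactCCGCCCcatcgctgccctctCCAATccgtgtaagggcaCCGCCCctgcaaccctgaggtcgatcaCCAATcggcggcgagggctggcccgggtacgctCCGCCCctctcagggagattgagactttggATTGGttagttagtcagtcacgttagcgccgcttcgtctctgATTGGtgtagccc
The FANCC start in that table lies inside the longer span that the count files give the gene. The FANCC stretch holds matches to the E2F, CHR and GC box words, and the XRCC3 stretch matches to the CCAAT and GC box words. The FANCD2 and RAD51C stretches hold no match to any of the 4. Over the 250 bases before the start, the E2F words were found in 2 of the 32 genes (FANCA and FANCC; 6.2%, against 2.8% of all 35116 promoters in the table) and the CHR words in 3 (9.4% against 14.3%). CCAAT was found in 12 (37.5% against 32.0%) and the GC box in 20 (62.5% against 42.6%). Of the genes that rose with lurbinectedin, 8 of 11 with an entry held a GC box, as did 7 of 12 that fell; for CCAAT the counts were 4 of 11 and 5 of 12. A match is a description of letters, and no binding was measured.

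In control spheroids the 37 genes summed to 1680 ± 30.6 CPM (SD, n = 3). On the log2 CPM scale the control mean was highest for FANCI (7.58 ± 0.0246, SD, n = 3) and lowest for RAD50 (2.65 ± 0.128). Compared per kilobase of exon, UBE2T had the highest control level at 23.6 CPM per kb, followed by NBN at 18.4, EXO1 at 17.7, RAD54L at 16.7 and FANCI at 16.1. RAD50 had the lowest at 0.585 CPM per kb, and FAN1 and RAD51D followed at 1.98 and 2.02. RAD50 shares 76.9% of its exon bases with another annotated gene on the same strand, which had no count in control or with lurbinectedin. Reads on the shared bases may have been set aside, so the level of RAD50 is uncertain. The summed level of all 37 was 1850 ± 150 CPM with teriflunomide, from 1760 and 1760 in replicates 1 and 2 and 2020 in replicate 3. It was 1390 ± 50.1 CPM with lurbinectedin and 1450 ± 71.1 in the combination. The 3 lurbinectedin libraries (1330 to 1420 CPM) and the 3 combination libraries (1370 to 1490) all lay below the lowest control library (1650 CPM), and the 3 teriflunomide libraries (1760 to 2020) above the highest (1700). The place of teriflunomide replicate 3 depends on the scaling. As a share of total counts the 37 genes held 0.1821 to 0.1842% in control and 0.1920, 0.1967 and 0.1784% in teriflunomide replicates 1 to 3, so that replicate 3 lay below control.

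Lurbinectedin against control asks how the alkylating drug alone moved these genes. Of the 37, 11 rose, 16 fell and 10 did not pass edgeR's quasi-likelihood test at a Benjamini-Hochberg adjusted p under 0.05; over all genes tested 71.6% were called, 36.0% higher and 35.7% lower. The share of the 37 called is thus near that of all genes, and the spread of directions within the pathway is what the values below describe. The changes ran from a log2 fold change of -3.32 for FANCC to 1.15 for XRCC3, with a median of -0.25 against 0.05 over all genes. The groups did not overlap for 31 of the 37 (13 above control, 18 below), against 83.2% of all genes (42.4% above, 40.8% below). With libraries scaled by their size alone, the median of all genes moved by -0.23 and 66% of all genes were called. The split of called members became 5 higher and 20 lower. Under that scaling EXO1, RAD51C, XRCC3, FANCB and FANCG were the members still called higher.

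**Figure D1:**
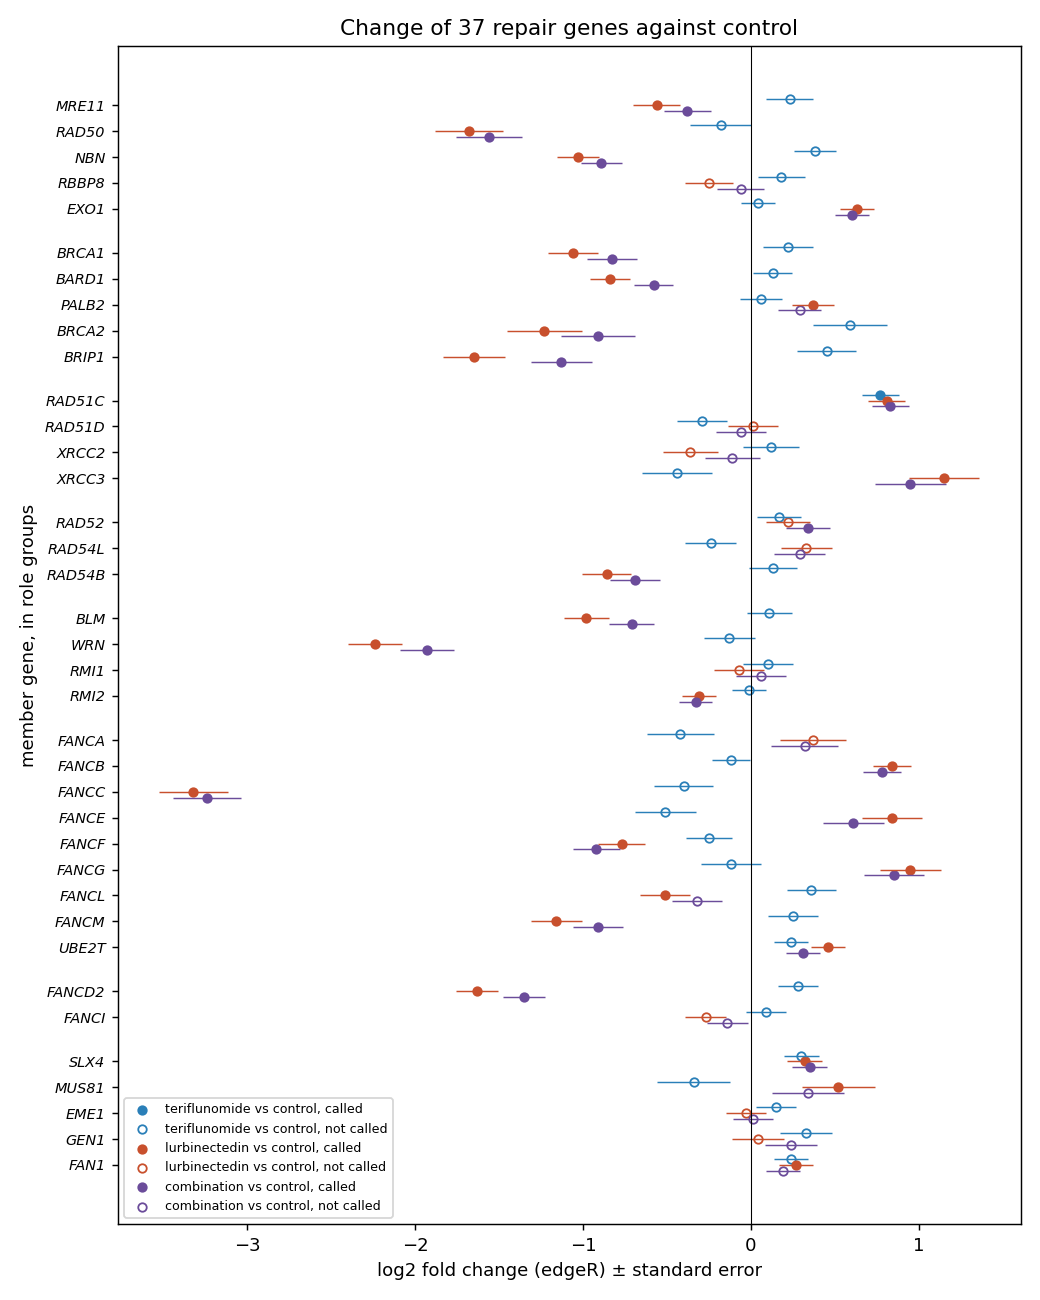
Log2 fold change ± standard error of each of the 37 genes against control for teriflunomide, lurbinectedin and the combination, ordered by role; filled points passed the test and open points did not. The lurbinectedin and combination points run from FANCC, near -3.3, to XRCC3, near 1, while 1 teriflunomide point, RAD51C, is filled.

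Among the genes that trim broken ends, 1 of 5 rose and 3 fell with lurbinectedin. EXO1 (ENSG00000174371.17, GRCh38 chr1:241847967-241895148), the nuclease of long-range resection, measured 70.5, 76.6 and 72.4 CPM in control, 72.7, 66.7 and 85.5 under teriflunomide, 116, 108 and 115 under lurbinectedin, and 108, 115 and 110 in the combination. Every library with lurbinectedin lay above every library without it. The rise was 1.54-fold (log2 fold change 0.63, SE 0.102, edgeR Benjamini-Hochberg adjusted p = 8.02e-05). NBN and MRE11, which with RAD50 form the complex that senses and first cuts the break, also moved. NBN fell by 1.03 and MRE11 fell by 0.56 on the log2 scale. RAD50 (chr5:132556019-132646349) measured 6.3, 5.58 and 6.66 CPM in control, 5.92, 6.08 and 4.33 under teriflunomide, 1.74, 1.99 and 2.04 under lurbinectedin, and 2.43, 1.48 and 2.33 in the combination. All 6 libraries with lurbinectedin were below the other 6, and the fall with lurbinectedin alone was 1.68 on the log2 scale (SE 0.203, adjusted p = 4.77e-06), with the limit on shared exons given above. RBBP8, which encodes CtIP, ranged from 31.4 to 37.7 CPM in control and from 25.4 to 32.3 with lurbinectedin and did not pass (adjusted p = 0.131).

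In the group of BRCA1, BRCA2 and their partners, 1 of 5 genes rose and 4 fell. BRIP1 (ENSG00000136492.10, chr17:61679139-61863559), the helicase also known as FANCJ, measured 53.1, 58.6 and 58.4 CPM in control, 68.4, 67.3 and 96.8 under teriflunomide, 13.7, 22.2 and 18.1 under lurbinectedin, and 30.2, 24.3 and 23.2 in the combination. The order of the groups did not overlap at any step, from lurbinectedin up through the combination and control to teriflunomide. BRIP1 was 3.15-fold lower with lurbinectedin than in control (log2 fold change -1.65, SE 0.185, adjusted p = 2.18e-06).
BRCA2 (ENSG00000139618.17, chr13:32315086-32400268), mutated in hereditary breast and ovarian cancer, measured 57.8, 62.1 and 60.2 CPM in control, 70.9, 74 and 126 under teriflunomide, 22.6, 29.3 and 24.7 under lurbinectedin, and 38.6, 34.3 and 22.8 in the combination. Both groups with lurbinectedin lay below control, and they overlapped each other. Its fall with lurbinectedin was 2.35-fold (log2 fold change -1.23, SE 0.223, adjusted p = 0.00021). The partners BRCA1 and BARD1, which form a ubiquitin ligase, also fell, with log2 fold changes of -1.06 and -0.84.
PALB2, the bridge between BRCA1 and BRCA2, went the other way. It measured 40.7, 42.4 and 43.1 CPM in control, 40.4, 39.7 and 51 under teriflunomide, 56.4, 51.7 and 55 under lurbinectedin, and 49, 59.5 and 46.1 in the combination, so that both groups with lurbinectedin lay above control. The rise of 0.37 (log2, SE 0.126, adjusted p = 0.0169) lost its call with library size as the only scaling, without the expression filter, without control replicate 1 and without lurbinectedin replicate 1. The 5 genes of this group summed to 298 ± 9.06 CPM in control and 166 ± 12.3 with lurbinectedin.

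The related genes RAD51C, RAD51D, XRCC2 and XRCC3, which act in strand pairing, included 2 that rose and none that fell. XRCC3 (ENSG00000126215.14, chr14:103697609-103715504; the CCAAT and GC box stretch above) measured 29.2, 26.1 and 30.3 CPM in control, 24.9, 25.3 and 12.9 under teriflunomide, 66.8, 58.4 and 65.1 under lurbinectedin, and 46.7, 52.1 and 66.7 in the combination. Every library with lurbinectedin was above every library without it, and the rise was 2.22-fold (log2 fold change 1.15, SE 0.211, adjusted p = 0.000225). XRCC3 shares 76.7% of its exon bases with KLC1 on the opposite strand, and the use of strand in counting is not given in the sources used here, so reads of the 2 genes cannot be told apart. RAD51C rose as well, by 0.81 on the log2 scale (SE 0.11, adjusted p = 1.28e-05). RAD51D was at 22.8 ± 0.539 CPM in control and 22.9 ± 2.12 with lurbinectedin (adjusted p = 0.968), and XRCC2 at 38.7 ± 1.15 and 30.2 ± 1.67 (adjusted p = 0.0674).

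RAD52, RAD54L and RAD54B, which anneal strands or help the search for the matching copy, included 1 fall. RAD54B measured 13.1, 10.7 and 11 CPM in control, 13.2, 11.7 and 13.3 under teriflunomide, 6.88, 6.72 and 5.67 under lurbinectedin, and 7.96, 7.63 and 6 in the combination. All 6 libraries with lurbinectedin lay below the rest, and the fall was 1.81-fold (log2 fold change -0.86, SE 0.148, adjusted p = 0.000139); 66% of its exon bases also belong to FSBP on the same strand. RAD54L averaged 68.3 ± 3.77 CPM in control and 85.8 ± 3.43 with lurbinectedin (adjusted p = 0.0678), and RAD52 11.3 ± 1.28 and 13.2 ± 0.7 (adjusted p = 0.149).

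Of the RecQ helicases and their partners, which unwind and dissolve joined molecules, 3 of 4 fell. WRN, the helicase lost in Werner syndrome, measured 85, 86 and 84 CPM in control, 67.7, 71.1 and 94.2 under teriflunomide, 15.6, 19 and 19.3 under lurbinectedin, and 26.5, 18.1 and 22.3 in the combination. No library with lurbinectedin exceeded 26.5 CPM and no other library fell short of 67.7 CPM. The fall was 4.72-fold (log2 fold change -2.24, SE 0.162, adjusted p = 2.54e-08). BLM, the Bloom syndrome helicase, fell by 0.98 on the log2 scale. Its partner RMI2 fell by 0.31, a call that was lost without control replicate 3. RMI1 was at 46.6 ± 2.41 CPM in control and 44.5 ± 2.44 with lurbinectedin (adjusted p = 0.704).

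The Fanconi core complex did not move as 1 unit: of its 8 listed subunits and UBE2T, 4 rose, 4 fell and 1 did not pass. FANCC (ENSG00000158169.13, chr9:95099054-95426796; the stretch with the E2F words above) measured 29.6, 31.4 and 30.2 CPM in control, 26.3, 26.1 and 16.7 under teriflunomide, 2.81, 3.44 and 2.87 under lurbinectedin, and 4.02, 2.57 and 3.03 in the combination. The groups with lurbinectedin lay far below the others and overlapped each other. FANCC was 9.97-fold lower with lurbinectedin than in control (log2 fold change -3.32, SE 0.204, adjusted p = 5.56e-09), and 5.11% of all genes tested had a log2 fold change at or below its value.
FANCG (ENSG00000221829.10, chr9:35073835-35079942), which sits with FANCA in the complex, measured 26, 25.4 and 27.4 CPM in control, 29, 27.2 and 16.2 under teriflunomide, 52.4, 48.9 and 50.7 under lurbinectedin, and 43.6, 42.9 and 55.3 in the combination. Every library with lurbinectedin was above every library without it, and the rise was 1.93-fold (log2 fold change 0.95, SE 0.179, adjusted p = 0.000299). FANCB and FANCE each rose by 0.84 and UBE2T by 0.46 on the log2 scale, but FANCE and UBE2T were not called with library size as the only scaling (adjusted p = 0.0535 and 0.199). FANCA averaged 47.3 ± 4.2 CPM in control and 61.2 ± 1.98 with lurbinectedin (adjusted p = 0.106).
FANCM, the DNA translocase that anchors the complex, fell by 1.16 on the log2 scale. FANCL, the ubiquitin ligase subunit, fell by 0.51. FANCF, an adaptor whose coding sequence lies in a single exon, measured 24.9, 25 and 23.2 CPM in control, 22.9, 21.7 and 17 under teriflunomide, 14.6, 14.3 and 14 under lurbinectedin, and 14.9, 12.7 and 11.2 in the combination. The 4 groups kept the order control, teriflunomide, then both lurbinectedin groups, and the fall with lurbinectedin was 1.71-fold (log2 fold change -0.77, SE 0.138, adjusted p = 0.000192). FANCF was chosen for this detail after its values were seen, as a short gene that fell. The 9 genes together summed to 244 to 247 CPM in control and to 249 to 260 CPM with lurbinectedin.

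FANCD2 and FANCI form the clamp that the core complex marks with ubiquitin, and 1 of the 2 passed the test. FANCD2 (ENSG00000144554.13, chr3:10026370-10101932; the stretch without a motif match above) measured 77.4, 81.9 and 79.9 CPM in control, 97.6, 96.8 and 95.9 under teriflunomide, 23.9, 25.9 and 27.2 under lurbinectedin, and 33.5, 25 and 35.5 in the combination. Teriflunomide libraries lay above control and both lurbinectedin groups below it. The fall with lurbinectedin was 3.11-fold (log2 fold change -1.63, SE 0.125, adjusted p = 4.59e-08). FANCI measured 187, 192 and 193 CPM in control, 205, 212 and 193 under teriflunomide, 147, 162 and 166 under lurbinectedin, and 183, 136 and 199 in the combination. Its lurbinectedin libraries lay below control but the difference of -0.27 on the log2 scale did not pass (SE 0.122, adjusted p = 0.0636).

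**Figure D2:**
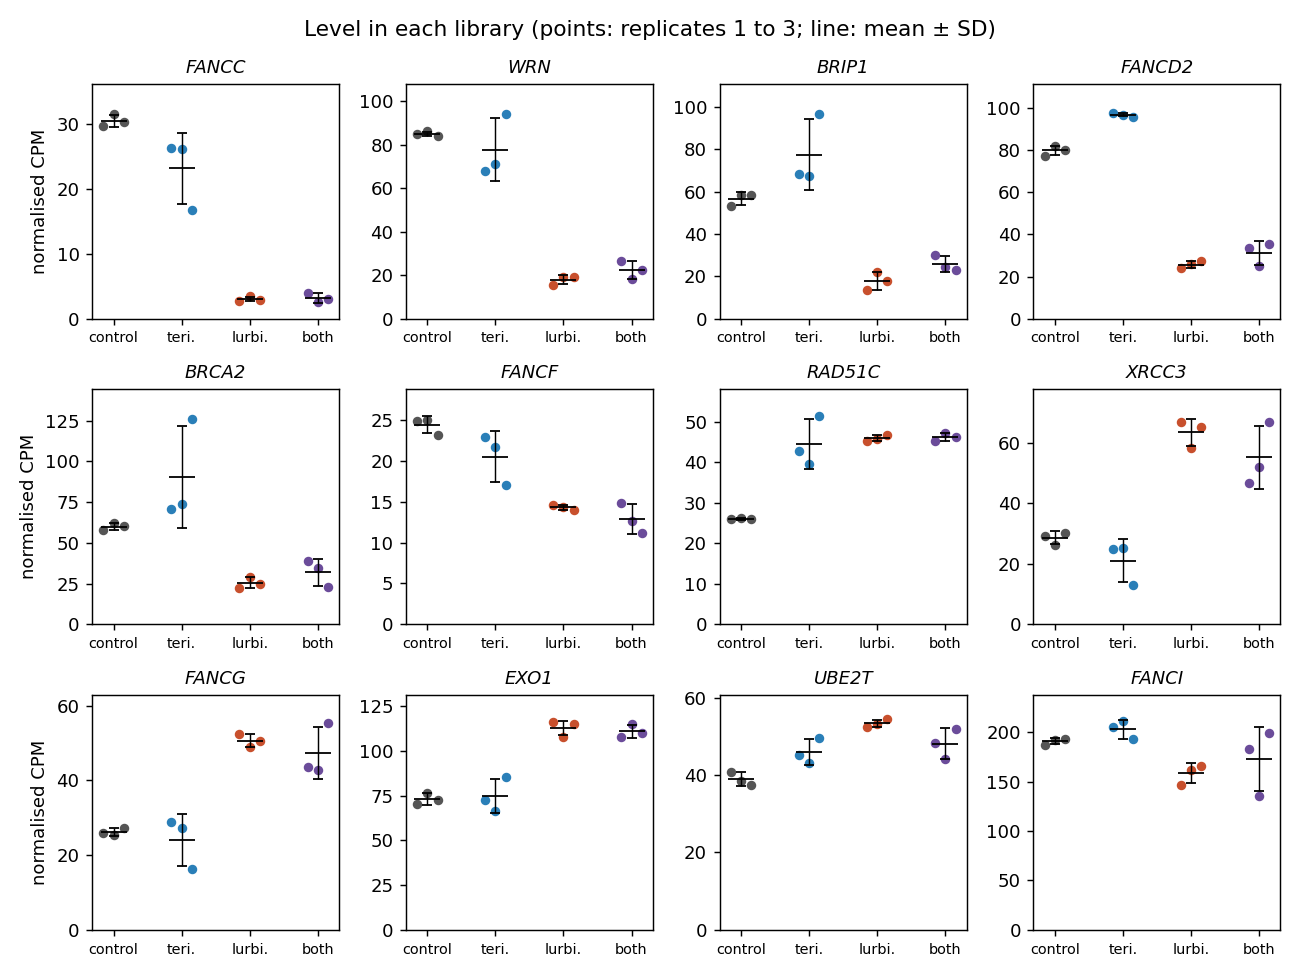
Normalised CPM of 12 of the genes in each library (points, replicates 1 to 3 from left to right) by treatment group, with mean ± SD (n = 3) and each axis starting at 0. FANCC drops from about 30 CPM to about 3 in both groups with lurbinectedin, XRCC3, FANCG and EXO1 stand higher there, and RAD51C stands above control in all 3 treated groups.

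Of the structure-specific nucleases that cut joined or crosslinked strands, 3 of 5 rose and none fell, all by small amounts. MUS81 measured 13.3, 13.7 and 14.3 CPM in control, 12, 13.5 and 6.95 under teriflunomide, 19, 20.1 and 20.3 under lurbinectedin, and 13.5, 16.2 and 22.5 in the combination. The lurbinectedin libraries were the only treated group entirely above control, with a log2 fold change of 0.52 (SE 0.216, adjusted p = 0.0424). SLX4, the nuclease scaffold, rose by 0.32 and FAN1 by 0.27. These 3 calls rest on the settings: with library size as the only scaling none of the 5 nucleases was called, and over 21 alternatives the call was lost in 10 for MUS81, 9 for FAN1 and 5 for SLX4. Leaving out any 1 control or lurbinectedin library ended the calls of MUS81 and FAN1, as did combination replicate 2 for MUS81. The call of SLX4 was lost without control replicate 1 and without lurbinectedin replicate 1 or 2. EME1, the partner of MUS81, stood at 14.1 ± 1.02 CPM in control and 13.8 ± 0.661 with lurbinectedin, and GEN1 at 31.7 ± 1.12 and 32.6 ± 3.22, neither past the test (adjusted p = 0.84 and 0.815).

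The genomic span of these genes, from first to last exon, ranged from 3.29 kb for FANCF to 328 kb for FANCC, with a median of 65 kb against 24.7 kb over all genes tested. Longer genes had lower fold changes with lurbinectedin: the Spearman correlation between span and log2 fold change was -0.674 over the 37 genes and -0.572 over 16651 nuclear genes. It was -0.62 and -0.546 for the combination against control. These are descriptions across genes that share the same libraries, so no p is given. The tested genes were placed by span in 5 bins of about equal number. In the longest bin (82.9 to 2300 kb) 10 of 11 members fell and none rose, against 83.7% lower and 5.82% higher among all genes of that bin. The members there had a median log2 fold change of -1.06, against -1.86 for all genes of the bin. That bin is wide, and the spans of members and other genes within it were not matched. In the second bin (5.26 to 16.2 kb) 4 of 5 members rose and none fell, against 56.9% higher over all its genes. In the fourth bin (35.9 to 82.9 kb), where 13 members lie, 5 rose and 5 fell, against 21.2% higher and 49.1% lower over all its genes.

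Set against the median of its own bin, the median member was 0.18 higher with lurbinectedin, with 22 of the 37 above their bin, and 0.11 higher in the combination, with 21 above. Some genes lay far from their bin. The difference from the bin median was -1.46 for FANCC and -1.28 for FANCD2. FANCC, at 328 kb, lies in the bin from 82.9 to 2300 kb, so its difference takes no account of span within that bin. It was also -1.46 for FANCF, whose bin of the shortest genes had a median of 0.69. On the other side it was 1.17 for RAD51C, 1.19 for FANCB, 1.61 for RBBP8 (228 kb) and 1.55 for RMI2 (132 kb). The span in the files covers all annotated transcripts of a gene: the principal transcript in GENCODE 29 spans 6.33 kb for RMI2 against 132 kb, and 93.2 kb for RBBP8 against 228 kb. The FANCC principal transcript spans 219 kb. On the span of the principal transcript the correlation over the members was no stronger than over all 12886 genes with one: -0.665 against -0.666 with lurbinectedin, and -0.592 against -0.628 in the combination.

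**Figure D3:**
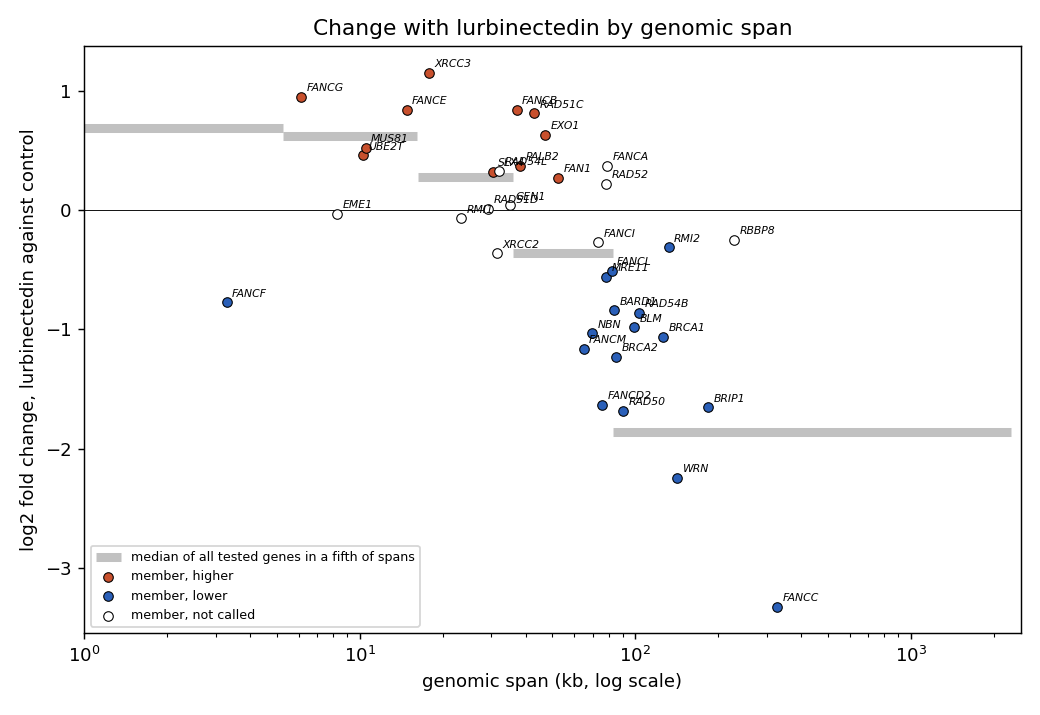
Log2 fold change of lurbinectedin against control for each of the 37 genes over its genomic span in kb (log axis), coloured by call; grey bars give the median of all tested genes in each of the 5 span bins, the shortest drawn from 1 kb. Members in the longest bin lie mostly below 0 and short members above, with FANCF (-0.77 at 3.29 kb) as the exception on the left.

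Teriflunomide against control asks what the pyrimidine synthesis inhibitor alone did. Of the 37 genes 1 rose, RAD51C, and none fell; over all genes 6.01% were called, 3.88% higher and 2.13% lower. At an unadjusted p under 0.05 the count of members was 12. The share of all genes at that threshold is not given here, so this count is not read as a result about the members. RAD51C (ENSG00000108384.15, chr17:58692573-58735611), which works in strand pairing and junction resolution, measured 26, 26.3 and 25.9 CPM in control, 42.8, 39.6 and 51.5 under teriflunomide, 45.2, 45.8 and 46.7 under lurbinectedin, and 45.3, 47.2 and 46.3 in the combination. All 9 treated libraries lay above the 3 controls, and the treated groups lay close to one another. The rise with teriflunomide was 1.71-fold (log2 fold change 0.77, SE 0.109, edgeR Benjamini-Hochberg adjusted p = 0.00175). Without teriflunomide replicate 3 it was 0.66 (adjusted p = 0.000172), and over 21 alternatives it stayed called between 0.66 and 0.86.

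The other members moved less. The groups did not overlap for 20 of the 37 (14 above control and 6 below), against 36.8% of all genes (20.1% above, 16.7% below), and the median log2 fold change was 0.12 against 0.03; without teriflunomide replicate 3 the median was 0.02. BRCA2 had a log2 fold change of 0.59 (SE 0.218, adjusted p = 0.119), which was 0.27 without teriflunomide replicate 3, the library at 126 CPM. FANCD2 differed by 0.28 (SE 0.12, adjusted p = 0.171); its 3 teriflunomide libraries, 95.9 to 97.6 CPM, were close together. FANCE had the lowest value of the members, -0.51 (adjusted p = 0.111), and -0.34 without replicate 3. Without replicate 3, SLX4 (0.34, adjusted p = 0.038) and FAN1 (0.3, adjusted p = 0.0401) were called higher beside RAD51C. In that run 5.51% of all genes were called higher and 3.6% lower. The Spearman correlation between span and log2 fold change was 0.22 over the 37 genes and 0.059 without that library.

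In the combination against control 9 members rose, 15 fell and 13 did not pass, with 68.4% of all genes called (34.1% higher, 34.4% lower). The groups did not overlap for 28 members (11 above, 17 below), against 77.2% of all genes (38.7% above, 38.5% below). This comparison and the one for lurbinectedin alone share their control libraries. FANCC again had the lowest value, at -3.24 (log2, SE 0.202, adjusted p = 7.85e-09), and XRCC3 the highest, at 0.95 (adjusted p = 0.00114). The falls included FANCD2 (log2 fold change -1.35), BRCA2 (-0.91), BRIP1 (-1.13) and WRN (-1.93). RAD51C rose by 0.83 (adjusted p = 1.29e-05) and EXO1 by 0.60 (adjusted p = 0.000126). RAD52 was called higher here, at 0.34 (adjusted p = 0.0343), a call lost in 5 of 21 alternatives, without control replicate 1 or 2 or combination replicate 3 among them. MRE11 fell by 0.38 (adjusted p = 0.0276), a call lost without control replicate 2 or 3 and without combination replicate 2 or 3. UBE2T rose by 0.31 (adjusted p = 0.0162), lost in 5, without control replicate 2 or 3 or combination replicate 3 among them. With library size as the only scaling the median of all genes moved by -0.17 and 62.7% of all genes were called. The members then split into 5 higher and 16 lower.

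The effect of lurbinectedin can be read from 2 separate sets of libraries: against control, and in the combination against teriflunomide. In the combination against teriflunomide 8 members rose, 16 fell and 13 did not pass, with 70.9% of all genes called (35.2% higher, 35.8% lower). The groups did not overlap for 24 members (8 above, 16 below), against 70.7% of all genes (35.1% above, 35.6% below). A total of 22 members were called in both comparisons in the same direction, 6 higher and 16 lower. This is 81.5% of the 27 called without teriflunomide and 91.7% of the 24 called with it. The share of all genes called in both is not given here, so the count is not read as a result about the members. The 2 fold changes had the same sign for 35 of 37 members, against 91.6% of all genes. Their Pearson correlation was 0.97 across the members (0.952 over all genes), a description across genes with no p. Against teriflunomide the log2 fold change was -2.84 for FANCC, -1.63 for FANCD2 and 1.39 for XRCC3, all called. RAD51C was not called there, at 0.05 (SE 0.108, adjusted p = 0.682). PALB2, UBE2T, SLX4 and FAN1 were likewise called without teriflunomide and not with it, and RAD54L (0.53, adjusted p = 0.00689) and FANCA (0.74, adjusted p = 0.00427) the reverse, both uncalled with library size as the only scaling.

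**Figure D4:**
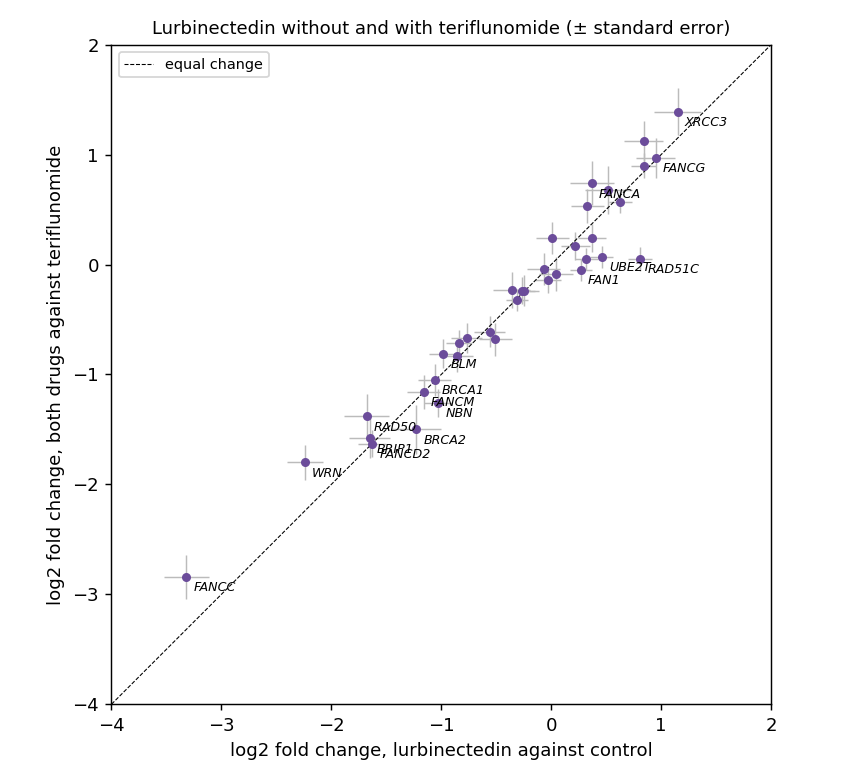
Log2 fold change ± standard error of the 37 genes for lurbinectedin without teriflunomide (lurbinectedin against control, x axis) and with it (combination against teriflunomide, y axis); the dashed line marks equal values. Most genes lie along the line from FANCC at the lower left to XRCC3 at the upper right, and RAD51C lies below it, at 0.81 and 0.05.

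Adding teriflunomide to lurbinectedin gave no called member: 0 of 37 in the combination against lurbinectedin, where 0% of all genes were called and the smallest adjusted p was 0.145. At an unadjusted p under 0.05, 3 members and 2599 genes passed. BRIP1 had the largest difference (13.7 to 22.2 CPM with lurbinectedin and 23.2 to 30.2 with both drugs; a log2 difference of 0.52, SE 0.183, adjusted p = 0.219), and its groups did not overlap, as for 5 of 37 members (3 above, 2 below) and 23.7% of all genes (11.1% above, 12.6% below). The count depends on 2 libraries. Without teriflunomide replicate 3 BRIP1 was called (0.53, adjusted p = 0.0226), as were 12.1% of all genes. Without that library and combination replicate 2, the 2 with the highest mitochondrial shares, 7 members were called higher. These were BRCA1, BRIP1, XRCC2, BLM, WRN, FANCD2 and FANCI, with log2 fold changes of 0.26 for XRCC2 to 0.56 for BRIP1, while 21.5% of all genes were called. That exclusion was chosen after the data were seen.

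Whether teriflunomide acts differently with and without lurbinectedin is the interaction. For it 0 of 37 members and 0.258% of all genes were called in edgeR (0.0360% higher, 0.222% lower). An unadjusted p under 0.05 was found for 3 members and for 1726 of the 16683 genes tested. RAD51C came nearest, with an interaction of -0.76 on the log2 scale (SE 0.154, adjusted p = 0.063): teriflunomide changed it by 0.77 without lurbinectedin and by 0.01 with it. DESeq2 called it (-0.74, adjusted p = 0.000229), and edgeR called it without teriflunomide replicate 3 (-0.64, adjusted p = 0.00651). With that library and combination replicate 2 both left out, XRCC2 (0.42) and WRN (0.73) were called as well. The shares of all genes called in these alternative runs are not given here, so the calls are not read as a result about the members.

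Beyond the 37, 45 of 46 other genes of these pathways were tested, among them subunits of the shieldin and BRCA1-A complexes. With lurbinectedin 16 rose and 17 fell (73.3% called, near the 71.6% of all genes). In the combination 13 rose and 21 fell (75.6%, against 68.4% of all genes). With teriflunomide 1, CENPX, fell, which is 2.22% against 6.01% of all genes (log2 fold change -0.90, adjusted p = 0.0249; -0.66 without teriflunomide replicate 3, adjusted p = 0.00755). The 3 with the smallest adjusted p under lurbinectedin all fell and are long genes: SPIDR, a recombination scaffold gene of 475 kb (log2 fold change -4.4), BABAM2, a BRCA1-A subunit of 449 kb (-3.32), and SHLD2, a shieldin subunit of 97.3 kb (-2.01). Because many repair genes follow the cell cycle, 20 S phase and proliferation genes were set beside them. With lurbinectedin 8 of these rose and 4 fell, or 40% and 20%, against 36.0% and 35.7% of all genes. PCNA rose by 1.38, RRM2 by 1.46 and CCNE2 by 1.76 on the log2 scale. Their summed level was 4220 CPM in control and 5300 with lurbinectedin, and that of the 37 repair genes went from 1680 to 1390 CPM. RRM2 alone went from 233 to 639 CPM and PCNA from 165 to 432, while 6 of the 20 had a log2 fold change below 0. The lowest value was -1.26, and UHRF1 went from 140 to 58.2 CPM. The sums take no account of genomic span. Set against their span bins, the S phase genes had a median difference of -0.12, with 9 of 20 above their bin. For the 37 repair genes it was 0.18, with 22 above. With teriflunomide 6 of the 20 fell and none rose (30% lower, against 2.13% of all genes). The 6 were MCM2, MCM4, MCM5, MCM6, MCM7 and UHRF1. Of all 20, 13 had a log2 fold change below 0 with teriflunomide and 7 above it. Without teriflunomide replicate 3 the counts were again 6 and 0, against 3.6% lower over all genes. The sums of the 20 were 4000, 3860 and 4160 CPM in teriflunomide replicates 1 to 3. Their part in the results was not tested.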

How the data were processed

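The deposited files hold raw read counts per gene, 1 file per library. Per the submitters' processing notes, the authors used fastp 0.23.2, STAR 2.7.9 and featureCounts of Subread with the build hg38; the annotation, the use of strand and the treatment of multi-mapping reads are not given in the sources used here. Identifiers were paired with symbols through a reference list of names, which covered 60507 of 60649. Libraries were grouped by the treatment label.

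From these counts, edgeR 4.0.16 in R 4.3.3 was run on all 12 libraries: filterByExpr, TMM scaling, a robust quasi-likelihood fit with 1 mean per group, 6 contrasts, and Benjamini-Hochberg adjustment over 16683 genes. Every adjusted p is from this fit unless another tool is named. Standard errors were derived from the F statistic. CPM used TMM effective library sizes; log2 CPM used a pseudocount of 0.1. The biological coefficient of variation was 14.5%. The script was run on simulated counts with 200 changed genes. With lurbinectedin 71.6% of all genes were called, so that run cannot show how the scaling behaves in these data. Depth limits the precision of genes with few CPM, such as RAD50.

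Same-numbered libraries did not deviate together (1 of 18 correlations over 0.1, range -0.402 to 0.144), so no pairing was used. Values in every library are given for the called members with the largest rise and fall per role group under lurbinectedin, for members called with teriflunomide, and for FANCD2 and BRCA2; FANCF and FANCI were added after their values were seen. The members, the lists and this rule were chosen with earlier results of these data known. Alternatives were DESeq2 size factors, DESeq2 1.42.0, library size alone, other filters, a replicate block, only the groups compared, no mitochondrial genes, a threshold of 0.01, and leaving out each library.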

Additional observations from a re-analysis of the deposited data

How the results depend on the processing

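The number of the 37 genes called under lurbinectedin (27; 22 to 33 over 22 alternatives), in the combination against control (24; 20 to 29) and against teriflunomide (24; 21 to 26) stayed within 1.5 times. Of the 29 members that share under 10% of their exon bases with another gene, 22, 21 and 17 were called in these comparisons. The main fit called 71.6, 68.4 and 70.9% of all genes in them. Under lurbinectedin the 22 of 37 came at a threshold of 0.01 (61.4% of all genes called) and the 33 with only the groups compared (83.8%). For the combination against control, 20 came at a threshold of 0.01 (57.4%) and 29 without teriflunomide replicate 3 (74.9%). For teriflunomide against control the count of 1 became 5 without an expression filter (2 higher, 3 lower), where 5.06% of all genes were called. It was 3 with DESeq2 (12.7% of all genes called) and 1 to 3 on leaving out each library. Without teriflunomide replicate 3 it was 3 (9.11% of all genes). Without that library and combination replicate 2 together it was 5 (16.3% of all genes). For the combination against lurbinectedin the count of 0 became 1 without a filter (1.72% of all genes called) and 0 to 1 on leaving out each library. The 1 came without teriflunomide replicate 3 (12.1% of all genes), and the count was 7 without those 2 libraries (21.5%). For the interaction the count became 1 with DESeq2, 0 to 1 on leaving out each library, and 3 without the 2. The shares of all genes called in those interaction runs are not given here. The Spearman correlation of span and fold change ranged from 0.059 to 0.28 for teriflunomide and from -0.643 to -0.603 for the combination on leaving out each library, and was 0.059 for teriflunomide without the 2. With summed exon length in place of span it was -0.483 for lurbinectedin and -0.445 for the combination, and with the span of the principal transcript -0.592 for the combination. The cause was not tested. A replicate block was also run, although the numbers do not pair the samples (2 of 12 libraries correlated best with their own number). It gave 25 called under lurbinectedin (9 higher, 16 lower), where 69.5% of all genes were called. In the combination it gave 24 against control (66.2% of all genes) and 24 against teriflunomide, for which the share is not given here. It gave 1 with teriflunomide (2.49% of all genes) and 0 in the other 2 contrasts. No called member changed direction in any alternative run; of the members not called, 7 did so for teriflunomide against control, 4 for lurbinectedin, 4 for the combination against control, 10 for it against lurbinectedin and 7 against teriflunomide, none with a log2 fold change above 0.23 in size. With 3 libraries per group and 1 cell line, small differences, such as those of 10 members not called under lurbinectedin, could not be resolved from 0.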

Other observations

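Of the 37 genes, 14 had a tested partner that starts nearby in the opposite direction, and the 2 genes of a pair did not always take the same call under lurbinectedin. In 3 pairs both rose and in 3 both fell. In 1 pair, FANCD2 and the pseudogene CIDECP1, whose annotated starts lie 5 bases apart, the repair gene fell and the partner rose from 2.86 ± 0.256 to 13.9 ± 1.66 CPM (SD, n = 3; log2 fold change 2.28, edgeR Benjamini-Hochberg adjusted p = 7.09e-08). RAD51C rose together with TEX14, a germ cell gene whose start lies 518 bases away and which went from 0.404 ± 0.123 to 8.98 ± 0.889 CPM (log2 fold change 4.45, adjusted p = 1e-09). RAD52 was not called while ERC1, of 505 kb and starting 456 bases away, fell by 5.29 on the log2 scale, from 82.1 ± 3.88 to 2.09 ± 0.267 CPM (adjusted p = 1.28e-11). WRN fell while its partner PURG did not pass (5.09 ± 0.135 and 4.27 ± 0.667 CPM, adjusted p = 0.184). EME1 was not called while MRPL27, a mitochondrial ribosomal protein gene that starts 13 bases away, rose by 1.27 (adjusted p = 5.47e-06). The annotated genes of these pairs do not overlap. The use of strand in counting is not given in the sources used here, so any reads that run past an annotated start into the partner cannot be told apart.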
